A study of Homo sapiens with 8 samples.

Results

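The 6 human peroxiredoxin genes, PRDX1 to PRDX6, and the sulfiredoxin gene SRXN1 were taken from the deposited expression table by their symbols. They are 7 of its 13730 genes, and all 7 passed the filter on low expression, with 3908 to 40795 reads on each gene in each library. The RNA came from LN229-TAZ(4SA), a human glioblastoma line whose name joins the parent line LN229 with a TAZ(4SA) construct. The 4 groups were control cells (EV) and TrxR1 knockout cells (KO), each kept in regular or in glucose-deprived medium, with 2 RNA-seq libraries a group. All 4 groups share the TAZ(4SA) background and differ by the TXNRD1 knockout, the medium or both. The number of knockout clones is not given in the sources used here, so whatever else separates KO from EV cells, such as clonal differences, and the loss of TrxR1 cannot be told apart. The duration of glucose deprivation is likewise not given. Letters a and b name the libraries within each group and pair nothing across groups. In bulk RNA, fewer cells expressing a gene and less RNA per cell cannot be told apart.

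Peroxiredoxins are abundant thiol enzymes that reduce hydrogen peroxide, organic peroxides and peroxynitrite with a reactive cysteine. PRDX1 and PRDX2 work mainly in the cytosol, PRDX3 in mitochondria and PRDX4 in the endoplasmic reticulum, while PRDX5 is found in mitochondria, peroxisomes and cytosol. In the catalytic cycle of most of them a disulfide forms that thioredoxin reduces, and thioredoxin is in turn reduced by thioredoxin reductase with NADPH, TrxR1 (TXNRD1) serving the cytosol and TXNRD2 the mitochondria. PRDX6 keeps a single catalytic cysteine and relies on glutathione and glutathione transferase P. At high peroxide levels the reactive cysteine of PRDX1 to PRDX4 can be oxidised further to a sulfinic acid, which sulfiredoxin, the SRXN1 product, reduces at the cost of ATP. SRXN1, PRDX1, TXN and TXNRD1 are known targets of NRF2, a transcription factor that answers oxidative stress and binds the antioxidant response element.

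Promoter sequence is shown for SRXN1, for GCLM and ME1, 2 of the 3 genes with the most similar profiles, and for the mitochondrial pair PRDX3 and PRDX5, whose mRNAs moved in opposite directions under glucose deprivation. The sequence of KYNU, the other of those 3 genes, is not shown. The sequences are RefSeq's on GRCh38.p14, run 5′ to 3′ on the strand of the gene and end at the base before the annotated gene start (250 bases each). Capitals mark the antioxidant response element core TGACNNNGC, on either strand, in the sequences of SRXN1, GCLM and ME1, and the GC box core GGGCGG, on either strand, in those of PRDX3 and PRDX5.
SRXN1, chr20:653201-653450, minus strand: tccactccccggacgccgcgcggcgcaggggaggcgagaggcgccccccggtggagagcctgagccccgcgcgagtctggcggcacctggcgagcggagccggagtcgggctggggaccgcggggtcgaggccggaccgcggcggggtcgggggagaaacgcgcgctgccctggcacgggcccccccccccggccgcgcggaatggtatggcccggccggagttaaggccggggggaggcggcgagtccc
GCLM, chr1:93909431-93909680, minus strand: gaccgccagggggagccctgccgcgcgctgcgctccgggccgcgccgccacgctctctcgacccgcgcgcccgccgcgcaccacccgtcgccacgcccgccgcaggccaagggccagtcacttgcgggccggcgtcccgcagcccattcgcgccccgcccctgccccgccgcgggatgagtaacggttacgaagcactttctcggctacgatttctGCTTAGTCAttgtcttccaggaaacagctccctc
ME1, chr6:83431052-83431301, minus strand: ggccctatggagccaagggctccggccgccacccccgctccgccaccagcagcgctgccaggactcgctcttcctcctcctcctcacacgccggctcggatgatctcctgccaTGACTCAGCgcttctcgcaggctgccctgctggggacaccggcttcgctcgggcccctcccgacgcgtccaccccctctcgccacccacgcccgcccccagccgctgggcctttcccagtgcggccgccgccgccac
PRDX3, chr10:119178813-119179062, minus strand: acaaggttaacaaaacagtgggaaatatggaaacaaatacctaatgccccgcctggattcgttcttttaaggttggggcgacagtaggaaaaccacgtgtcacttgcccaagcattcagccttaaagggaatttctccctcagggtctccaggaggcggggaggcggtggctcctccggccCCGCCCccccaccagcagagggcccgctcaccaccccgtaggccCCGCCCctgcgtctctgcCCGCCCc
PRDX5, chr11:64317871-64318120, plus strand: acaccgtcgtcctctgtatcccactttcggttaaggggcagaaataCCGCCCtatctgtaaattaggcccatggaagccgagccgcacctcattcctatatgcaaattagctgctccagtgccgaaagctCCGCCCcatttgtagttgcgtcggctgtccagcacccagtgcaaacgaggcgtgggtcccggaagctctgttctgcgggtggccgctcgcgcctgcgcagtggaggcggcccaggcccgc

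In GCLM the core lies on the reverse strand and begins 34 bases before the gene start, and in ME1 it lies on the forward strand, 137 bases before the start, where it overlaps the AP-1 core TGANTCA. No match to TGACNNNGC was found in the SRXN1 window, nor in the 300-base windows (250 bases before the gene start and 50 after it) of the 5 members in the RefSeq table, which are PRDX2, PRDX3, PRDX4, PRDX5 and SRXN1. The core is present in 13.3% of all 35116 promoter windows and in those of 6 of 21 listed NRF2 target genes that have one. TGANTCA, found in 7.71% of windows, was likewise not matched in these 5 members. The GC box core has 3 matches in the PRDX3 sequence and 2 in that of PRDX5, and is held by 45% of all windows. GENCODE release 29 places the starts of SRXN1 (653370), PRDX3 (119178833) and PRDX5 (64318088) inside the sequences shown and that of PRDX4 outside its window, so the windows and distances depend on the annotation. The sequence of PRDX5 is from 1 of its 2 RefSeq windows. Matches are letters in a window, not binding sites.

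On GRCh38 (GENCODE release 29), PRDX1 lies on the minus strand of chromosome 1 (45511036 to 45523047) and PRDX6 on the plus strand of the same chromosome (173477266 to 173488807). PRDX2 is on chromosome 19 (12796820 to 12801859, minus strand), PRDX3 on chromosome 10 (119167703 to 119178833, minus strand) and PRDX4 on chromosome X (23664262 to 23686399, plus strand). PRDX5 is on chromosome 11 (64318088 to 64321811, plus strand) and SRXN1 on chromosome 20 (646615 to 653370, minus strand). All 7 are protein-coding genes. The library kit does not mark strand, so reads of PRDX1 and of MMACHC, which overlaps it on the opposite strand, cannot be told apart. The same holds for PRDX2 in its overlap with the antisense gene AC018761.2. HOOK2 overlaps PRDX2 and AL121758.1 overlaps SRXN1 on the same strand, so strand could not separate reads in these overlaps either. GENCODE also lists 10 genes named as pseudogenes of PRDX1 to PRDX4, none of which has a row of its own in the table, so reads that fit a pseudogene are uncertain.

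Read counts recovered from the table summed to 70083018 to 107229069 per library. Of 7 markers of the glioblastoma line all were in the table, VIM at 2958 to 3673 CPM (read counts scaled to a common library total), CD44 at 1011 to 1171, NES at 386 to 853, EGFR at 109.9 to 136, SOX2 at 15.1 to 55.1, OLIG2 at 6.20 to 16.1 and GFAP at 0.708 to 1.26 CPM over the group means. With deprivation SOX2 fell by 1.72 in EV and 1.35 in KO cells and NES by 1.03 and 0.97 on the log2 scale, while OLIG2 rose by 1.24 and 1.32, and with the knockout in regular medium SOX2 fell by 0.51 and EGFR rose by 0.29 (limma adjusted p from 2.8e-10 to 0.00097). Of 6 markers of other cell types, PTPRC, PECAM1, VWF and KRT5 were not analysed here, RBFOX3 was at 0.246 to 0.887 CPM, and CD68, a lysosomal protein used as a macrophage marker, averaged 25.5 (EV) and 25.2 CPM (KO) in regular medium and 52.9 (EV) and 46.6 CPM (KO) in deprived medium. CD68 thus rose with deprivation by 1.05 in EV and 0.89 in KO cells (limma adjusted p = 3.6e-08 and 1.4e-07), and the part of these marker changes in the results below was not tested. The mean level of the targeted gene TXNRD1 in regular medium was 262 ± 1.5 CPM for EV and 247 ± 3.3 CPM for KO (SD, n = 2). Its mRNA total does not test the knockout, since an edited transcript can still be counted. TXNIP, which glucose induces, fell by 3.04 (EV) and 3.23 (KO) on the log2 scale in the columns taken as glucose-deprived. The headers of those columns end in GlcN, a term absent from the labels that can also stand for glucosamine. Whether the libraries of a group stem from separate cultures is not stated in the labels, and the p-values therefore rest on the spread among these libraries alone, and that spread may be technical.

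Knockout of TrxR1 went with more SRXN1 and PRDX1 mRNA in both media, and the other 5 genes passed no test for the knockout. In regular medium 2 of 7 genes rose and 0 fell at an adjusted p under 0.05, where 3.87% of all 13057 genes tested rose, 3.38% fell and 7.25% passed in either direction. In glucose-deprived medium the same 2 genes rose and 0 fell, where 9.04% of all genes rose, 10.6% fell and 19.6% passed in either direction. EV and KO libraries did not overlap for 5 of 7 genes in regular medium and for 3 of 7 in deprived medium, beside 55.4% and 61.1% of all genes. The median log2 difference of the 7 genes was 0.12 in regular and 0.04 in glucose-deprived medium, against -0.0033 and -0.0057 over all genes tested. All tests below are limma's moderated tests on the deposited log2 CPM, adjusted by Benjamini-Hochberg over all genes tested.

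Glucose deprivation went with more SRXN1 and PRDX5 mRNA and less PRDX1 and PRDX3 mRNA in both EV and KO cells. In EV cells 3 of 7 genes rose and 2 fell, where 37.5% of all genes rose, 38.7% fell and 76.2% passed in either direction. In KO cells 2 rose and 2 fell, where 36.5% rose, 36.8% fell and 73.3% passed. Counts of 5 and 4 out of 7 are no higher than the share of all genes that passed. The libraries of the 2 media did not overlap for 6 of 7 genes in EV and 5 of 7 in KO cells, beside 90.5% and 83.6% of all genes. The medians were 0.01 in EV and 0.03 in KO cells, against -0.0114 and -0.0015 over all genes.

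**Figure D1:**
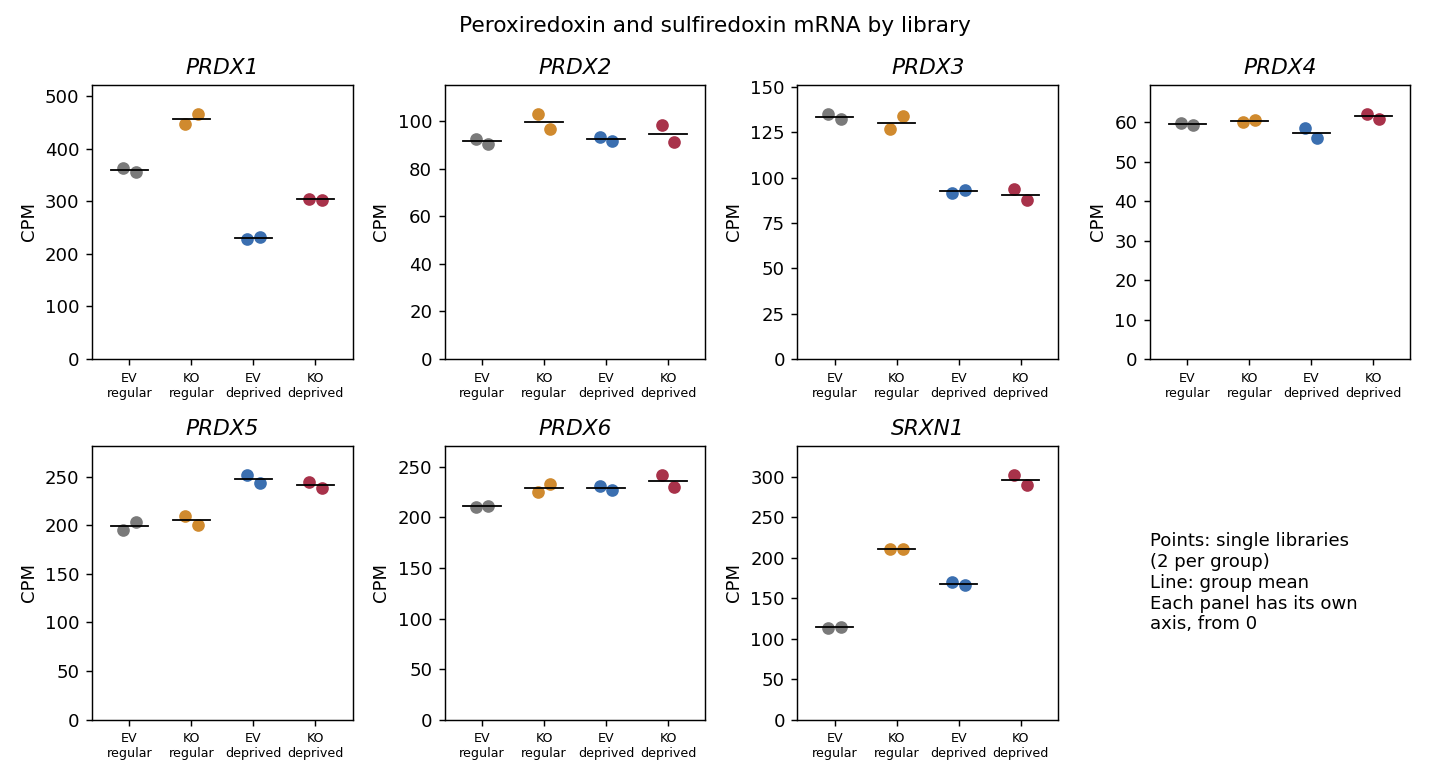
Expression of the 7 genes in CPM in each library, with 2 points and a line at the mean for each of the 4 groups and an axis from 0 in each panel. SRXN1 climbs from about 114 CPM in EV cells in regular medium to 302 and 289.6 CPM in KO cells in glucose-deprived medium, whereas PRDX1 and PRDX3 are lower in deprived than in regular medium.

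SRXN1, the sulfinic acid reductase, was measured at 114 and 114 CPM in EV cells in regular medium and at 210.25 and 210.65 CPM in KO cells. In glucose-deprived medium it was at 170.05 and 166 CPM in EV cells and at 302 and 289.6 CPM in KO cells. No 2 groups overlapped, and the order from low to high was EV regular, EV deprived, KO regular, KO deprived. The knockout difference was 0.89 ± 0.03 on the log2 scale in regular medium (SE, limma adjusted p = 1.2e-07), a 1.85-fold rise that was the 23rd highest of all 13057 genes. In glucose-deprived medium it was 0.81 ± 0.03 (limma adjusted p = 2.3e-07), a 1.76-fold rise ranked 81st. Deprivation raised SRXN1 by 0.56 ± 0.03 in EV cells (limma adjusted p = 1e-07) and by 0.49 ± 0.03 in KO cells (limma adjusted p = 3.1e-07), and 84.4% and 82.7% of all genes had a lower difference. KO cells in deprived medium thus carried 2.60 times the SRXN1 level of EV cells in regular medium.

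PRDX1, the main cytosolic peroxiredoxin, rose with the knockout and fell with deprivation. It was at 363 and 356 CPM in EV cells in regular medium, at 446 and 465 CPM in KO cells in regular medium, at 229 and 232 CPM in EV cells in deprived medium and at 305 and 302 CPM in KO cells in deprived medium. The 4 groups did not overlap, and the KO cells in deprived medium stood below the EV cells in regular medium. The knockout difference was 0.34 ± 0.03 in regular medium (limma adjusted p = 0.00022), or 1.27-fold, and 0.40 ± 0.03 in deprived medium (limma adjusted p = 3.9e-05), or 1.32-fold. Of all genes tested, 98.7% and 96.7% had a lower knockout difference in these media. Deprivation changed PRDX1 by -0.64 ± 0.03 in EV cells (limma adjusted p = 3.5e-08) and by -0.58 ± 0.03 in KO cells (limma adjusted p = 7.2e-08), levels of 0.642 and 0.667 of those in regular medium. A lower difference was seen in 10.3% and 9.74% of all genes.

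PRDX2, the second cytosolic enzyme, did not pass any of the tests. Its libraries read 92.4 and 90.5 CPM (EV regular), 103 and 96.6 CPM (KO regular), 93.3 and 91.5 CPM (EV deprived) and 98.3 and 91.0 CPM (KO deprived). Each group overlapped its neighbour in the order of means, while the EV and KO libraries in regular medium did not overlap. The knockout difference in regular medium was 0.12 ± 0.05 (limma adjusted p = 0.13), with an unadjusted 95% interval of 0.02 to 0.23. For deprivation the intervals were -0.09 to 0.12 in EV and -0.18 to 0.03 in KO cells. The difference in KO cells, -0.08 (adjusted p = 0.16), passed as -0.13 without KO deprived a (limma adjusted p = 0.029).

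PRDX3, the mitochondrial peroxiredoxin, fell with glucose deprivation in both cell types and passed no test for the knockout. It was at 135 and 133 CPM (EV regular) and 127 and 134 CPM (KO regular), against 91.4 and 93.5 CPM (EV deprived) and 93.7 and 87.7 CPM (KO deprived). Every library in regular medium stood above every library in deprived medium, while EV and KO libraries overlapped within each medium. Deprivation changed it by -0.53 ± 0.04 in EV cells (limma adjusted p = 1e-06) and by -0.52 ± 0.04 in KO cells (limma adjusted p = 1.3e-06). Of all genes tested, 14.7% and 12.1% had a lower deprivation difference. The knockout differences were -0.04 (adjusted p = 0.64) and -0.03 (adjusted p = 0.69).

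PRDX5, which also serves mitochondria, rose with deprivation. It was at 195 and 203 CPM (EV regular) and 209 and 201 CPM (KO regular), and at 252 and 244 CPM (EV deprived) and 244 and 239 CPM (KO deprived). All 4 libraries in deprived medium were above the 4 in regular medium, with EV and KO overlapping within each. Deprivation raised it by 0.32 ± 0.04 in EV cells (limma adjusted p = 1.8e-05) and by 0.24 ± 0.04 in KO cells (limma adjusted p = 0.00017), or 1.25-fold and 1.18-fold. A lower deprivation difference was seen in 73.3% and 69.4% of all genes. The knockout differences of 0.04 and -0.04 did not pass (adjusted p = 0.52 and 0.52). Per kb of exon, the PRDX3 level was 0.176 ± 0.007 of that of PRDX5 in EV cells in regular medium and 0.098 ± 0.004 in deprived medium (SD, n = 2). The size of this ratio depends on the length used. Exons span 3417 bases for PRDX3 and 893 for PRDX5, and the longest coding sequences 768 and 642.

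PRDX4, the secretory-pathway peroxiredoxin, passed no test and had the lowest CPM of the 7 genes. Its libraries read 59.8 and 59.3 CPM (EV regular), 60.2 and 60.6 CPM (KO regular), 58.6 and 56.1 CPM (EV deprived) and 62.1 and 61.0 CPM (KO deprived). The groups did not overlap, yet their means spanned only 57.3 to 61.5 CPM. The largest of its differences was that of the knockout in deprived medium, 0.10 ± 0.04 (limma adjusted p = 0.083, unadjusted 95% interval 0.02 to 0.19). The interval of the deprivation difference was -0.14 to 0.03 in EV and -0.06 to 0.11 in KO cells.

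PRDX6, the enzyme with a single catalytic cysteine, was lowest in EV cells in regular medium. It was at 210.0 and 211 CPM there, at 225 and 233 CPM in KO cells in regular medium, at 230.4 and 227 CPM in EV cells in deprived medium and at 242 and 230.1 CPM in KO cells in deprived medium. The 3 other groups overlapped one another at least in part, and all stood above the EV libraries in regular medium. Deprivation raised PRDX6 in EV cells by 0.12 ± 0.04 (limma adjusted p = 0.011), a call that ended without EV deprived a (0.11, limma adjusted p = 0.075), EV regular a (0.11, 0.071) or EV regular b (0.12, 0.052). The knockout difference in regular medium, 0.12 ± 0.04, missed the threshold (limma adjusted p = 0.071) and passed without KO deprived a (adjusted p = 0.033) or b (adjusted p = 0.032). In deprived medium it was 0.04 (adjusted p = 0.41), and deprivation in KO cells gave 0.04 (adjusted p = 0.28). PRDX6-AS1, the neighbouring antisense gene, averaged 0.673 to 1.18 CPM in the 4 groups.

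**Figure D2:**
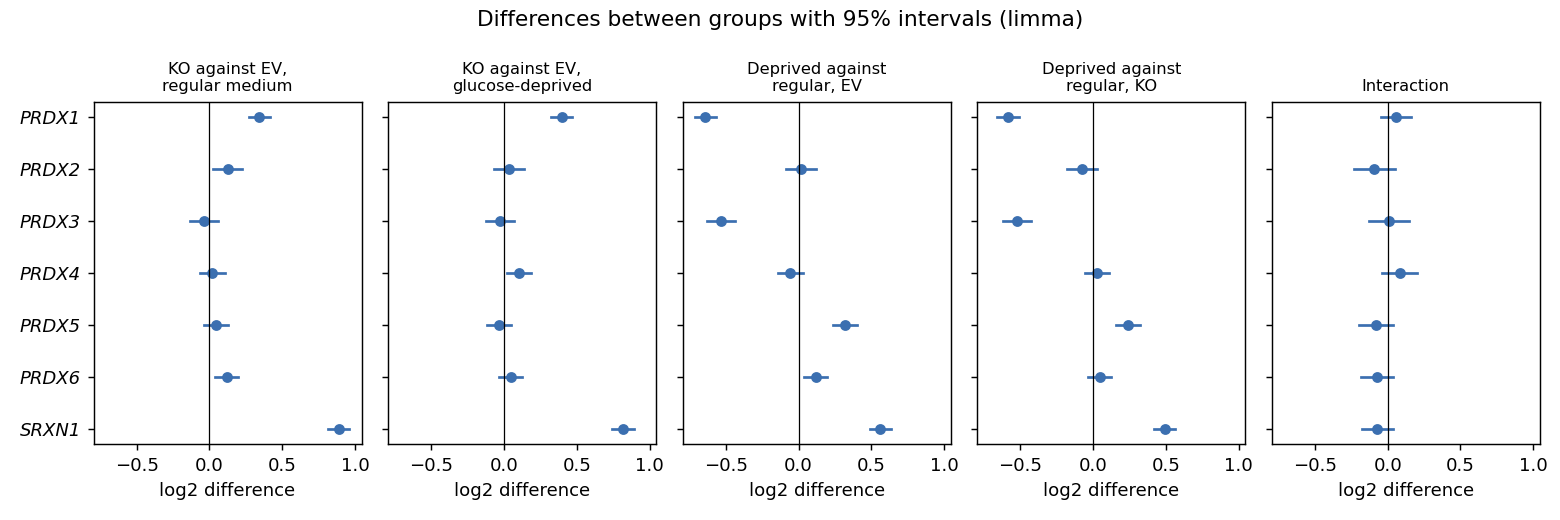
Log2 differences of the 7 genes in 5 contrasts (points) with 95% intervals from the limma fit (lines), not adjusted for the number of genes. SRXN1 lies right of 0 in all 4 group comparisons, PRDX1 changes side between the knockout (0.34 and 0.40) and the deprivation contrasts (-0.64 and -0.58), and every interaction interval includes 0.

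None of the 7 genes passed the test of interaction, that is, of whether the knockout difference depends on the medium (0 of 7, where 2.31% of all genes passed upward, 2.01% downward and 4.31% in either direction). At an unadjusted p under 0.05 the count was also 0, but the share of all genes at that threshold was not counted, so this count has no comparison. For SRXN1 the interaction was -0.07 with an unadjusted 95% interval of -0.18 to 0.03, and for PRDX1 it was 0.05 with an interval of -0.05 to 0.16. Adding the separate knockout and deprivation differences gives 1.45 for SRXN1, and the observed difference of KO deprived from EV regular cells was 1.38. For PRDX1 the sum was -0.30 and the observed difference -0.24. The other 5 interactions ranged from -0.09 (PRDX2) to 0.08 (PRDX4), and their intervals all included 0 and reached no further than -0.23 or 0.20.

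**Figure D3:**
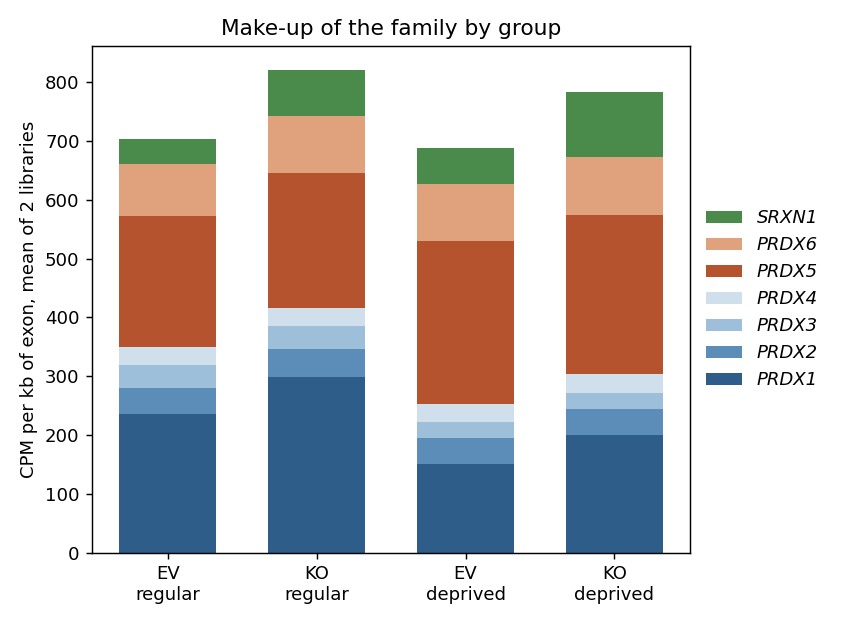
Expression of the 7 genes in CPM per kb of exon, stacked from 0, as the mean of 2 libraries in each of the 4 groups. PRDX1 (dark blue) is the largest block in regular medium, at 236 and 299 CPM per kb, and PRDX5 (dark orange) in deprived medium, at 277 and 270.4 CPM per kb.

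To set the genes beside one another, CPM were divided by the length of all annotated exons of a gene. In EV cells in regular medium PRDX1 then had 236 ± 3.3 CPM per kb and PRDX5 had 223 ± 6.5 (SD, n = 2), followed by PRDX6 at 89.0 ± 0.44. PRDX2, SRXN1, PRDX3 and PRDX4 came next at 43.7, 42.2, 39.2 and 31.3 CPM per kb. In EV cells in deprived medium PRDX5 led at 277 ± 6.1, with PRDX1 at 151.5 ± 1.6 CPM per kb. PRDX1 made up 35.7% ± 0.6 of the summed level of the 6 peroxiredoxins in EV and 40.3% ± 1.0 in KO cells in regular medium, and 24.2% ± 0.5 and 29.6% ± 0.4 in deprived medium. The sum of the 6 changed less, from 662 ± 2.3 CPM per kb in EV regular to 743 ± 4.1 in KO regular, 627 ± 6.6 in EV deprived and 674 ± 13.5 in KO deprived cells. These shares are no counts of protein, and a gene's position among the 7 depends on the length used. With the coding length PRDX1 still led in regular medium, but SRXN1 and not PRDX5 led in deprived medium.

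The level of SRXN1 was also set against that of PRDX1 to PRDX4, whose oxidised forms sulfiredoxin can repair. Per 100 units of their summed CPM per kb, SRXN1 stood at 11.9 and 12.2 in EV cells and at 19.0 and 18.5 in KO cells in regular medium. In deprived medium it stood at 25.0 and 24.3 in EV cells and at 36.4 and 35.8 in KO cells. No groups overlapped, and KO cells in deprived medium had the highest value and EV cells in regular medium the lowest. With the longest transcript or the coding length the levels were 9.13 and 27.6 in EV regular and 27.2 and 83.5 in KO deprived cells, in the same order of groups. No test was run on this ratio.

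**Figure D4:**
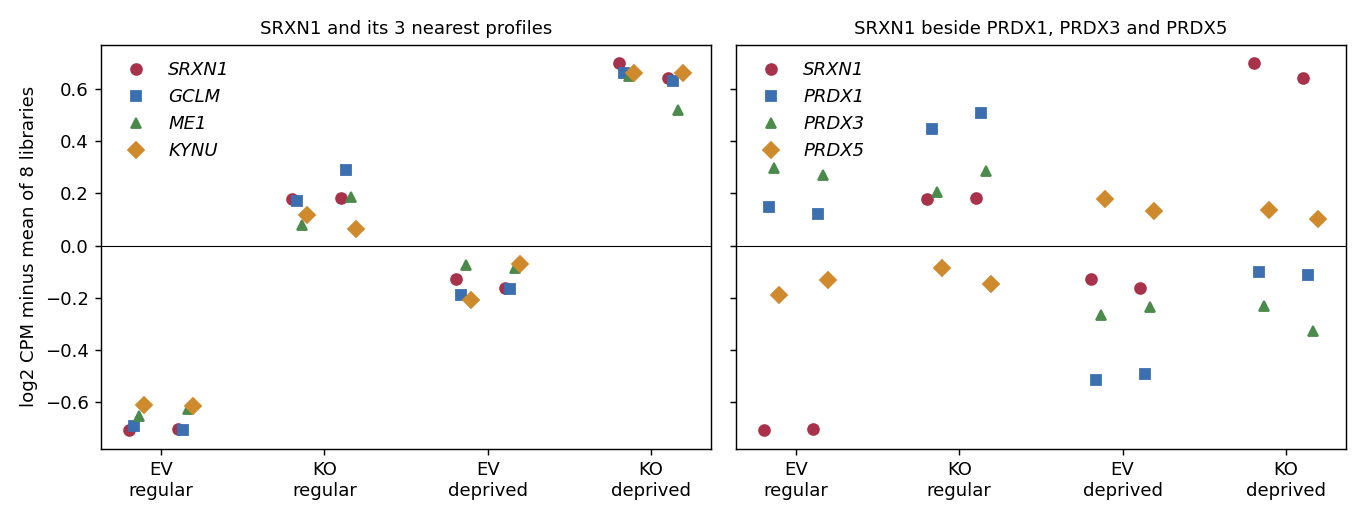
Log2 CPM of each gene minus its mean over the 8 libraries, by group, with 2 libraries a group. On the left SRXN1 is shown with GCLM, ME1 and KYNU, which follow the same order of groups; on the right SRXN1 and PRDX1 are both higher in KO than in EV cells, PRDX3 is lower and PRDX5 higher in deprived medium.

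Genes with the most similar profiles were found by the Euclidean distance between log2 CPM centred on the gene's mean over the 8 libraries. Nearest to SRXN1 was GCLM, the modifier subunit of the enzyme that starts glutathione synthesis, at a distance of 0.133, with ME1, cytosolic malic enzyme and a source of NADPH, at 0.211 and KYNU, kynureninase, at 0.228. The Pearson correlations with SRXN1 over the 8 libraries were 0.996, 0.995 and 0.99, given as a description since the libraries share 4 groups. The knockout differences of GCLM were 0.93 in regular and 0.82 in deprived medium, beside 0.89 and 0.81 for SRXN1, and its deprivation differences 0.52 and 0.42, beside 0.56 and 0.49. Nearest to PRDX1 were GFOD1 (0.133), BID (0.155) and MLLT11 (0.169), and nearest to PRDX3 were QSER1 (0.04), CLP1 (0.064) and RAN (0.065). CCDC6 was nearest to PRDX5 (0.056), QRSL1 to PRDX6 (0.038), SNX3 to PRDX4 (0.042) and SF3A1 to PRDX2 (0.079). Among the members the closest pair was PRDX2 and PRDX4 (0.159), which changed little, and the farthest PRDX3 and SRXN1 (1.95).

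In the thioredoxin system, which reduces most peroxiredoxins, TXN rose with the knockout in both media. Deprivation moved genes of either compartment in both directions, as it did among all genes. TXN, cytosolic thioredoxin, had a mean in regular medium of 146 ± 2.9 CPM for EV and 191 ± 4.9 CPM for KO (SD, n = 2). Its knockout difference was 0.39 ± 0.04 in regular medium (limma adjusted p = 0.00018) and 0.43 ± 0.04 in deprived medium (adjusted p = 4.3e-05), beside 0.34 and 0.40 for PRDX1. With deprivation TXN changed by -0.11 in EV cells (adjusted p = 0.017), a call that ended without EV regular a (adjusted p = 0.14), EV deprived a (0.068) or EV deprived b (0.081), and by -0.08 in KO cells (adjusted p = 0.083). In mitochondria, TXNRD2, the reductase, fell with deprivation by 0.60 in EV and 0.72 in KO cells (limma adjusted p = 7.6e-07 and 2.2e-07), beside PRDX3, while TXN2, mitochondrial thioredoxin, rose by 0.31 and 0.23 (adjusted p = 4.3e-05 and 0.0004), beside PRDX5. Neither passed for the knockout. TXNRD1 rose with deprivation by 0.94 in EV and 0.54 in KO cells and was the gene of this list with a called interaction (-0.39 ± 0.05, limma adjusted p = 0.0025). As TXNRD1 is the targeted gene, the part of the edit itself in its KO values, here and in the counts below, was not tested. Of 8 tested genes of the list, 1 rose with the knockout in regular medium and 0 fell, 1 rose and 2 fell in deprived medium, and with deprivation 2 rose and 4 fell in EV cells and 3 and 3 in KO cells. Shares of all genes serve for comparison here and in the lists below. With deprivation 37.5% rose and 38.7% fell in EV cells, and 36.5% and 36.8% in KO cells. In either direction 76.2% and 73.3% passed, near the share of this list. With the knockout 3.87% rose and 3.38% fell in regular medium, and 9.04% and 10.6% in deprived medium. Without EV deprived a, 1 gene of the list fell with the knockout in deprived medium, TXNIP (-0.31) losing its call (adjusted p = 0.053).

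Glutathione is the reductant of PRDX6. Of 10 genes of glutathione synthesis and reduction, glutaredoxins and glutathione transferase P, 5 rose with the knockout in regular medium, 6 rose in deprived medium and 0 fell in either. Both counts of rises were lower when some single libraries were left out. GSR, glutathione reductase, rose by 0.67 and 0.62 (limma adjusted p = 3.6e-06 and 4.3e-06), and GCLC, the catalytic partner of GCLM, by 0.38 and 0.47 (adjusted p = 0.0012 and 0.00015). With deprivation 7 rose and 2 fell in EV cells, and 6 and 2 in KO cells, GLRX, a cytosolic glutaredoxin, by 2.26 and 2.14 upward and the mitochondrial GLRX5 by -0.66 and -0.64. SLC7A11, the cystine importer, had the called interaction of the list (-1.44, limma adjusted p = 7.4e-07). The list's median difference was 0.16 and 0.12 for the knockout and 0.43 and 0.37 for deprivation, beside medians of all genes within 0.02 of 0.

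Genes that make or remove peroxide by other routes gave 4 calls for the knockout in each medium among 13 tested. Of 6 tested peroxidases outside the family, 1 rose with the knockout in regular medium (GPX3, a secreted glutathione peroxidase, by 0.34, limma adjusted p = 0.017), and 1 rose and 1 fell in deprived medium (GPX3 by 0.35 and GPX8, of the endoplasmic reticulum, by -0.15). The GPX3 rise in regular medium did not pass once EV regular b (adjusted p = 0.09), EV regular a (0.16) or KO regular a (0.085) was left out, and that in deprived medium without EV deprived b (0.064). The call of GPX8 ended without any 1 of EV regular a or b, EV deprived a or b or KO deprived b (adjusted p = 0.071 to 0.19). Without KO deprived a, 2 rose and 2 fell in deprived medium. With deprivation 3 rose and 1 fell in both cell types, GPX8 by 0.73 and 0.63 upward and GPX1, the main cytosolic glutathione peroxidase, by -0.32 and -0.21. With some single libraries left out the number of these rises was lower in each cell type. Among 7 tested dismutases and oxidases, SOD1, the cytosolic superoxide dismutase, rose with the knockout by 0.24 and 0.32 (limma adjusted p = 0.0072 and 0.00067), the former without a call when EV regular a was left out (adjusted p = 0.12). In all, 2 of these genes rose and 1 fell with the knockout in regular medium, which became 0 and 0 without EV regular a, 1 and 0 without KO regular a, and 1 and 1 without EV regular b, EV deprived a or EV deprived b. In deprived medium 2 rose and 0 fell, and the rise of SOD2, the mitochondrial dismutase (0.16, adjusted p = 0.049), did not pass on leaving out EV regular a or b, EV deprived a or b, or KO deprived a. With deprivation 3 rose and 0 fell in EV cells, and 4 rose and 2 fell in KO cells. Both EV counts and the count of KO rises changed with some single libraries left out. Among the EV rises was DUOX1, at a low level of 0.98 CPM in regular and 1.37 CPM in deprived medium.

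Genes of disulfide formation in the compartment of PRDX4 changed with deprivation to unequal degrees. ERO1B, an oxidase that makes hydrogen peroxide there, rose by 3.10 in EV and 3.30 in KO cells (limma adjusted p = 7.1e-11 and 4.5e-11), from a mean of 8.53 CPM in EV cells in regular medium. Its paralogue ERO1A, at 94.1 CPM there, had differences of 0.12 (adjusted p = 0.058) and 0.19 (adjusted p = 0.0061). Of 13 protein disulfide isomerases and relatives, 9 rose and 3 fell in EV cells and 10 and 2 in KO cells, PDIA4 by 2.06 and 2.13 and PDIA3 by 1.20 and 1.18, with list medians of 0.67 and 0.63. For the knockout 0 rose and 1 fell in regular medium (PDIA4, -0.30), which became 4 without KO deprived a or b and 3 without KO regular b, and 5 fell in deprived medium, which became 1 without EV deprived a and 3 without EV deprived b or KO deprived b.

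SRXN1 and PRDX1 rose with the knockout together with most listed NRF2 targets. With deprivation, where most of these targets rose, SRXN1 rose too, while PRDX1 changed by -0.64 in EV and -0.58 in KO cells. Of 27 tested NRF2 targets, which hold no peroxiredoxin and not SRXN1 but share TXN, TXNRD1, GSR, GCLC, GCLM and SLC7A11 with the lists above, 23 rose and 0 fell in KO cells in regular medium and 23 and 1 (the targeted gene TXNRD1) in deprived medium, with medians of 0.65 and 0.60. With deprivation 24 rose and 3 fell (ABCC1, CBR1 and TXN) in EV cells, and 23 and 1 in KO cells, by medians of 0.82 and 0.54. CBR1 had the directions of PRDX1, with mean log2 CPM of 4.20 (EV) and 4.54 (KO) in regular and 3.88 and 4.09 in deprived medium. TXN had them too, with smaller deprivation differences, while ABCC1 averaged lower in KO than in EV cells in regular medium. The number that fell became 1 in EV cells without EV regular a, and 2 in KO cells without KO regular a or KO deprived a. For the interaction 0 passed upward and 7 downward, NQO1, a quinone reductase, by -0.47 (limma adjusted p = 0.00037), where SRXN1 had -0.07 (adjusted p = 0.39). TXNRD1, the targeted gene, was also among the 7. The 7 downward interactions and the 23 rises with the knockout in each medium also changed in number with some single libraries left out. Of 4 methionine sulfoxide reductases 0 passed for the knockout in either medium, and with deprivation 1 rose and 2 fell in both cell types, MSRB3 by -0.92 and -0.93. The count that fell became 1 in EV cells without EV regular a or b or EV deprived a, and 1 in KO cells without KO deprived a. Of 3 sestrins, stress proteins once linked to peroxiredoxin repair, 0 passed for the knockout in regular medium and 1, SESN2, rose by 0.43 in deprived medium (limma adjusted p = 0.00019). SESN2 rose with deprivation by 3.13 in EV and 3.50 in KO cells, with a called interaction of 0.37 (limma adjusted p = 0.011) that was lost without EV regular a or EV deprived b (adjusted p = 0.08 and 0.078). In all 2 of 3 sestrins rose in each cell type, and 1 fell in KO cells, which became 0 without KO regular b, and 0 in EV cells, which became 1 without EV regular b.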

How the data were processed

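The 8 RNA-seq libraries were prepared from total RNA with SMART-Seq mRNA HT and Nextera XT kits, per the labels' protocols. HISAT2, edgeR and GRCh38 are named in the submitters' processing notes, without versions. The counting tool, annotation and gene filter are not given in the sources used here. The authors deposited log2 CPM for 13730 genes. Raised back from the log2 scale, and with the offset of 0.023 CPM at the lowest value removed, 100% of values in every library were whole numbers of reads within 0.05. CPM in the text are these values. Headers name only the group of a column, and GlcN was read as glucose-deprived.

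All 13057 genes whose mean log2 CPM was 0 or more entered 1 limma model of the 4 groups (limma 3.58.1, R 4.3.3, variance trend, 4 residual degrees of freedom), and 673 genes did not. Fold changes are on the deposited log2 scale, which holds a small prior count. P-values are two-sided, adjusted by Benjamini-Hochberg over all genes tested, with calls at an adjusted p under 0.05. The fit was also run on simulated reads with a fixed spread and a small share of genes changed, in KO regular only. That setting is unlike the deprivation contrasts, so the run does not bear on them. Named genes are the 7 members, the 3 nearest profiles of each, up to 4 called genes of each list by smallest adjusted p, and TXN, TXN2, TXNRD1, TXNRD2 and TXNIP. PRDX6-AS1, ERO1A, the tests of marker genes, the overlapping genes and the GC box motif were added after their values were seen. The members and the 8 gene lists were chosen with earlier results of these data known. Alternatives were no filter, log2(CPM + 1), median-of-ratios scaling, no variance trend, voom weights on the recovered reads, only the 2 groups compared, other gene lengths and motifs, and each library left out.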

Additional observations from a re-analysis of the deposited data

How the results depend on the processing

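The calls of SRXN1, PRDX1, PRDX3 and PRDX5 held with the same sign under all 14 alternatives in each group comparison that called them. No called difference reversed. Calls that changed with 1 library left out were those of PRDX6 and, once, PRDX2, as given above. Counts of members called with 1 library left out were 2 to 3 for the knockout in regular medium, 2 in deprived medium, 4 to 5 for deprivation in EV and 4 to 5 in KO cells, and 0 for the interaction. Over all genes, calls numbered 946 for the knockout in regular medium (168 without EV regular a, 1414 without KO deprived b), 2561 in deprived medium (852 without EV deprived b) and 563 for the interaction (147 without EV regular a, 1579 without KO deprived a). Median-of-ratios scaling moved no library by more than 0.0089. No paired analysis was possible because the columns carry no replicate numbers.

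The share of each gene in the summed CPM per kb of all 7, averaged over the 8 libraries, depends on the length used. With exons, the longest transcript and the coding length, in this order, it was 29.4%, 30.5% and 26.7% for PRDX1, 6.05%, 6.21% and 7.62% for PRDX2, 4.38%, 5.53% and 6.99% for PRDX3, 4.2%, 6.71% and 3.52% for PRDX4, 33.6%, 28.4% and 16.7% for PRDX5, 12.8%, 14.6% and 16.1% for PRDX6 and 9.63%, 8.14% and 22.4% for SRXN1. Depth did not limit these genes, since the fewest reads on one in a library were 3908.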
